A study of Mus musculus with 6 samples.

Results

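The genes described here make cholesterol or control its supply. There are 27 of them among the 20499 genes of the count table, chosen by name: 19 enzymes that carry acetyl-CoA to cholesterol, taken in pathway order, and 8 genes of sterol sensing, uptake, traffic and the liver X receptors (LXR). All 27 had a row, and all 27 had enough reads to be tested, with 76 to 9366 reads per library. Not every step from acetyl-CoA to cholesterol is covered by the 19 enzymes. Related genes of SREBP processing, lipogenesis, isoprenoid use, sterol traffic and LXR action, from 5 lists, follow at the end.

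RNA was sequenced in 6 libraries of cells that the labels call AML12, an immortalized mouse hepatocyte line, harvested after hypoxia and reoxygenation, which imitates in a dish the loss and return of blood flow in liver. In the shRNF11 group (3 libraries) a lentivirus had knocked down RNF11, a small RING-type ubiquitin ligase. The shControl group (3 libraries) is given as WT in the labels and carried the control construct. Cells of both groups spent 6 h at 1% oxygen without glucose or serum and were then returned to normal air in complete medium with 10% fetal bovine serum, insulin-transferrin-selenium and dexamethasone at 40 ng/mL. Serum brings lipoprotein cholesterol to cells. The time between return to air and harvest, the hairpin sequences and whether the lines were single clones are not stated in the labels. The labels do not say that replicates were separate cultures, so p-values measure the spread between libraries that may be technical repeats. Libraries held 37485850 to 39045440 reads.

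The files and the labels do not name the same organism. The table holds human symbols and Entrez numbers, and 0 of these numbers occur among 49997 mouse RefSeq genes. Hepatocyte markers were at or near 0: of 13, 9 were listed and 0 could be tested, and their summed level was 0.184 to 0.778 CPM in shRNF11 libraries and 0.417 to 0.568 CPM in shControl libraries, where CPM is reads per 1000000 reads of the TMM-scaled library. Epithelial markers, nearly all reads of the keratins KRT7, KRT8 and KRT18, summed to 3773 to 3900 CPM in shRNF11 libraries. In shControl libraries they summed to 3105 to 3234 CPM. CDH1, also in that sum, had only 29 reads over the 6 libraries. Of 6 epithelial markers, 4 were listed and 3 could be tested. Summed mesenchymal markers overlapped between the groups (61.8 to 89.5 CPM in shRNF11 libraries, 66.2 to 90.2 CPM in shControl libraries), as did endothelial ones (1.87 to 3.31 and 2.56 to 2.87 CPM, in the same order). Immune markers, nearly all CD68 reads, summed to 41.4 to 46.5 CPM in shRNF11 libraries and 47.7 to 52.7 CPM in shControl libraries. The part of these markers in the results below was not tested, and in bulk RNA fewer cells of a type and less RNA per cell cannot be told apart. RNF11 itself averaged 15.3 ± 0.475 CPM in shRNF11 cells and 51.0 ± 1.69 CPM in shControl cells (SD, n = 3 each), with no overlap.

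Animal cells build cholesterol from acetyl-CoA through mevalonate, the isoprenoid diphosphates, squalene and lanosterol. When sterol in the endoplasmic reticulum falls, the escort protein SCAP carries the factor SREBP2, the product of SREBF2, to the Golgi, where proteases release its active part. That part switches on the enzymes of the pathway and also INSIG1, whose product holds SCAP back when sterol is plentiful. Oxysterols act on the other side through the LXRs, which favour export over uptake.

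Cholesterol genes did not move as a block after RNF11 knockdown. Of the 27, 5 were higher in shRNF11 cells, 5 were lower, and 17 did not pass an adjusted p of 0.05 (edgeR quasi-likelihood test, Benjamini-Hochberg adjustment across the 13489 genes tested). That is 37% of the members, while 32.1% of all tested genes passed, 17.4% higher and 14.7% lower, so the share lies near the background. It was 42.1% of the 19 enzymes and 25% of the 8 other members, and no difference between these parts was tested. The median log2 fold change of the members was 0.0025, and that of all tested genes was -0.0079. The 5 higher genes were SQLE, LSS, CYP51A1, MSMO1 and SOAT1; the 5 lower ones were PMVK, FDPS, TM7SF2, DHCR7 and INSIG1. The changes were small: 9 of the 10 were under 1.25-fold, and the 10 spanned 1.06-fold to 1.59-fold.

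**Figure D1:**
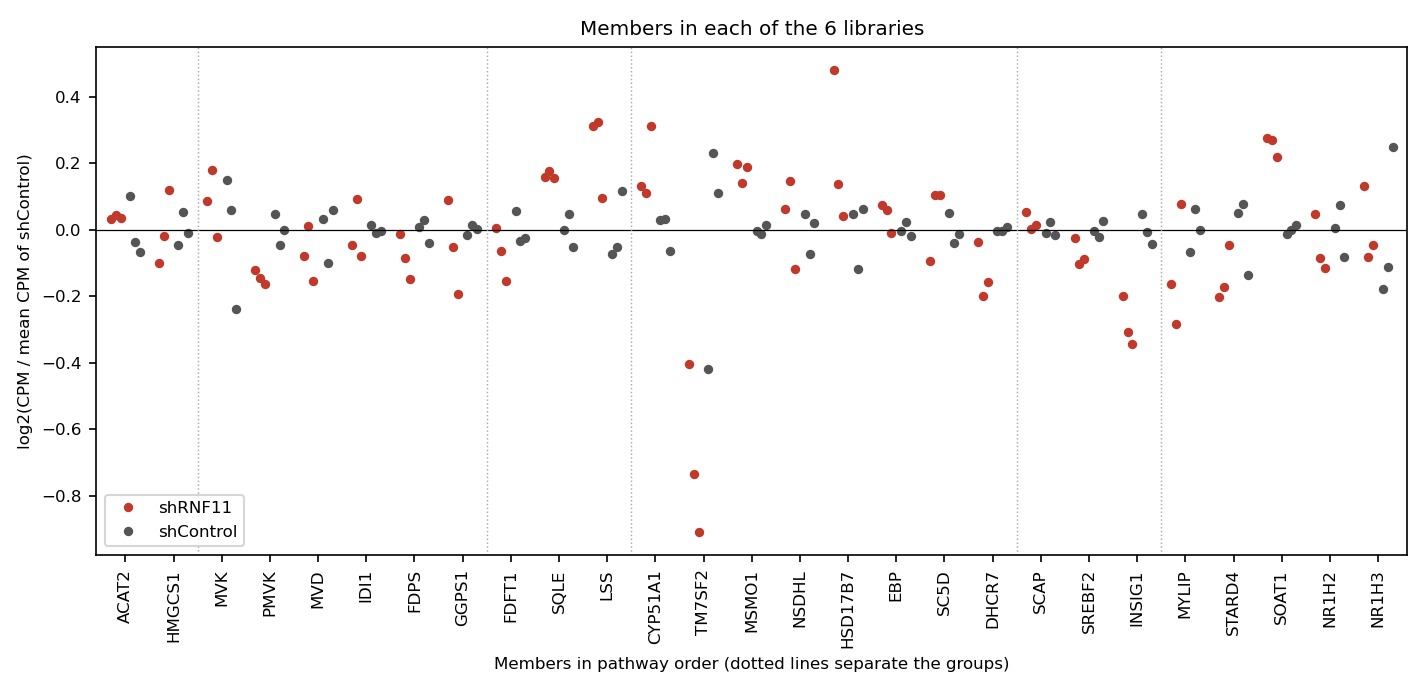
Level of each of the 27 members in each library, as log2 of the CPM over the mean CPM of shControl, in pathway order from left to right, with shRNF11 libraries left of shControl libraries for each gene. SQLE, CYP51A1, MSMO1 and SOAT1 have all 3 shRNF11 points above the shControl points, and INSIG1, DHCR7, PMVK and SREBF2 have all 3 below, while the other 19 members overlap. Of all tested genes, 42.8% did not overlap.

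The counts depended on the libraries and the scaling. The number of lower members was 5 with all libraries, 6 without shRNF11 replicate 1, 2 without replicate 2, 1 without replicate 3, and 3 without any 1 of the shControl libraries. Over all tested genes, 1988 were lower with all libraries, and 1795, 1529 and 1711 without shRNF11 replicates 1, 2 and 3. Without shControl replicates 1, 2 and 3 the lower genes numbered 1504, 1644 and 1632. The number of higher members was 5 with all libraries and 3 without shControl replicate 3. Over all tested genes 2348 and 1974 were higher in the same order. With library totals in place of TMM factors, 3 members were higher and 8 lower, and among all called genes the share that was higher was 29.1%, against 54.2% with TMM factors. LSS, CYP51A1, SOAT1 and INSIG1 were the 4 members called in all 14 alternatives, each time in the same direction.

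The opening enzymes, which feed the mevalonate pathway, did not pass the test. ACAT2 (Entrez 39), the cytosolic thiolase that joins acetyl-CoA units, averaged 67.4 ± 0.344 CPM in shRNF11 cells and 65.7 ± 4.14 CPM in shControl cells (SD, n = 3 each). HMGCS1 (Entrez 3157), which adds the next acetyl unit and is a standard SREBP2 target, had 80.4, 85.0 and 93.6 CPM in the shRNF11 libraries, against 83.4, 89.5 and 85.6 CPM in the shControl libraries. The shRNF11 values of HMGCS1 enclosed the shControl values, and the 95% interval of the shRNF11 to shControl ratio ran from 0.941 to 1.07.

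Among the 6 genes that turn mevalonate into isoprenoid diphosphates, 2 fell by small amounts and 4 did not pass. That is near the 32.1% of all tested genes called, of which 14.7% were lower and 17.4% higher as shares of all tested genes. PMVK (Entrez 10654), the second kinase of the sequence, had 39.3, 38.8 and 38.3 CPM in shRNF11 libraries, against 44.2, 41.5 and 42.8 CPM in shControl libraries. All shRNF11 values lay below all shControl values, for a log2 fold change of -0.14 (SE 0.0548, edgeR adjusted p = 0.0403). FDPS (Entrez 2224), which makes farnesyl diphosphate, the branch point towards sterols and prenylated proteins, had 236.9, 225.7 and 215.7 CPM in shRNF11 libraries, against 240.5, 244.3 and 232.7 CPM in shControl libraries. The highest shRNF11 library of FDPS lay above the lowest shControl library (log2 fold change -0.081, SE 0.0323, edgeR adjusted p = 0.0487). Both calls were marginal: that of PMVK was lost without shRNF11 replicate 1, 2 or 3 or shControl replicate 1 or 3 (edgeR adjusted p 0.0527, 0.0947, 0.108, 0.168 and 0.0851), and that of FDPS without shRNF11 replicate 2 or 3 or shControl replicate 1 or 2 (0.135, 0.336, 0.148 and 0.192). Beyond left-out libraries, FDPS also missed the threshold in DESeq2 (adjusted p = 0.0725), with RLE factors (edgeR adjusted p = 0.0526) and with no filter (0.0557), and PMVK with no filter (0.0657). Without shRNF11 replicate 3 the log2 fold change of FDPS was -0.043.

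The other 4 genes of that stretch overlapped between the groups. The mevalonate kinase gene MVK averaged 14.8 ± 1.04 CPM in shRNF11 cells and 13.96 ± 1.90 CPM in shControl cells. MVD, which decarboxylates mevalonate diphosphate, averaged 24.5 ± 1.42 and 25.8 ± 1.504 CPM in shRNF11 and shControl cells. For IDI1, the isomerase that supplies the primer unit, the means were 55.6 ± 3.55 CPM in shRNF11 cells and 55.9 ± 0.541 CPM in shControl cells. GGPS1, which extends farnesyl to geranylgeranyl diphosphate, averaged 23.1 ± 2.27 CPM in shRNF11 cells and 23.9 ± 0.260 CPM in shControl cells (SD, n = 3 each throughout).

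Of the 3 genes from squalene synthesis to ring closure, 2 were higher and 1 did not pass, beside 17.4% of all tested genes that were higher. FDFT1 (Entrez 2222), squalene synthase and the first enzyme committed to sterols, had 127.3, 121.3 and 114.1 CPM in shRNF11 libraries, against 131.8, 123.8 and 124.8 CPM in shControl libraries, and did not pass (log2 fold change -0.069, SE 0.0387, edgeR adjusted p = 0.177). It passed without shRNF11 replicate 1 (log2 fold change -0.11, edgeR adjusted p = 0.0444) and with library totals (-0.13, adjusted p = 0.00576). SQLE (Entrez 6713), the epoxidase that is a rate-limiting step after mevalonate, had 61.0, 61.8 and 61.0 CPM in shRNF11 libraries, against 54.7, 56.5 and 52.8 CPM in shControl libraries. Its shRNF11 libraries were the tighter group and all lay above shControl, at 1.12-fold higher (log2 fold change 0.16, SE 0.0477, edgeR adjusted p = 0.00615). That call was lost without shControl replicate 3 (edgeR adjusted p = 0.0515) and with library totals (0.103).

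LSS (Entrez 4047), which closes the sterol ring to give lanosterol, showed the largest rise among the enzymes. It had 71.0, 71.6 and 61.1 CPM in shRNF11 libraries, against 54.4, 55.2 and 62.0 CPM in shControl libraries. Replicate 3 of shRNF11 fell just below replicate 3 of shControl, so the groups overlapped by that pair. The fitted change was 1.19-fold (log2 fold change 0.25, SE 0.0530, edgeR adjusted p = 0.000218), and the log2 value ranged from 0.18 to 0.32 over the 14 alternatives.

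**Figure D2:**
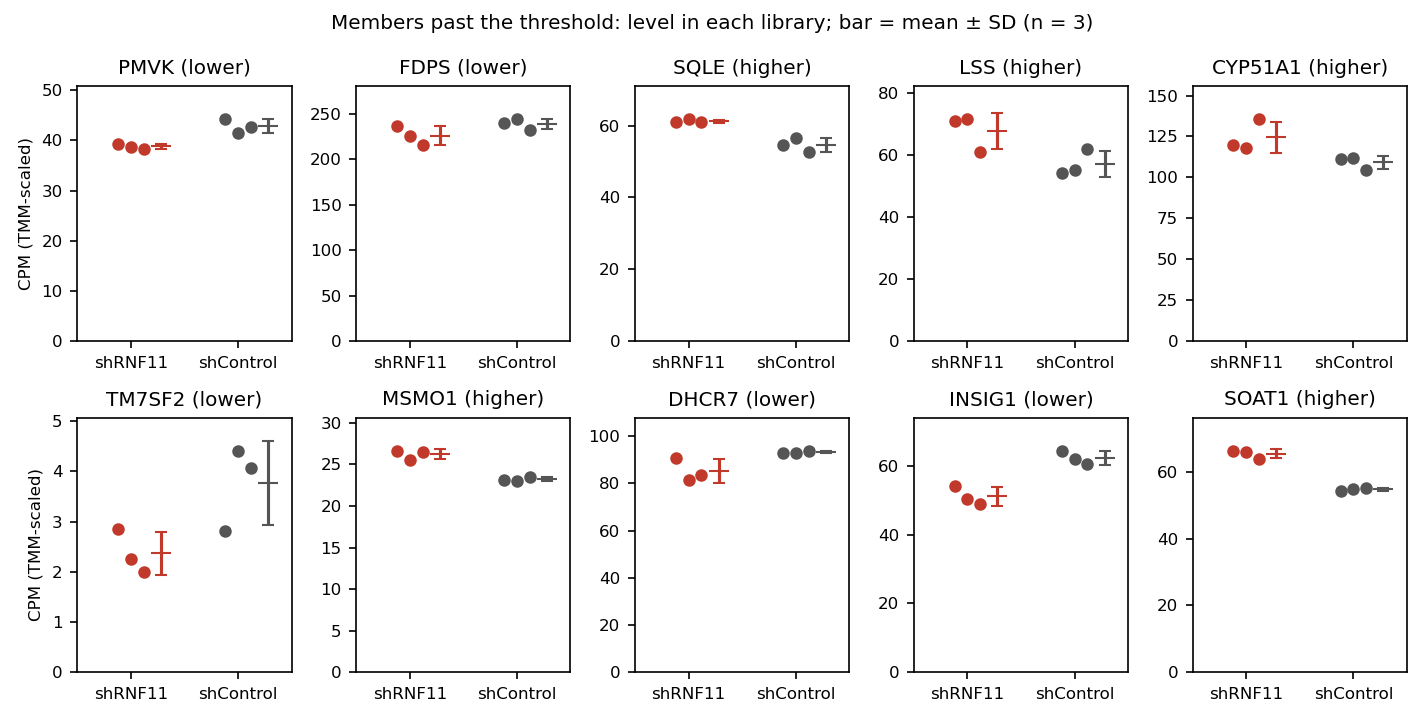
CPM of the 10 members past the threshold in each library, shRNF11 left and shControl right in each panel, with the mean ± SD of 3 libraries beside the points and each axis starting at 0. The differences are small against the levels, and 7 of the 10 genes show no overlap between the groups, while FDPS, LSS and TM7SF2 do overlap. The 10 were picked by p-value, which favours separated groups. Over all 27 members 8 did not overlap, beside 42.8% of all tested genes.

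From lanosterol to cholesterol, 4 of the 8 enzymes were called, 2 in each direction, and the remaining 4 missed the threshold. Among all tested genes 32.1% were called, 17.4% upward and 14.7% downward, and no difference from these shares was tested. CYP51A1 (Entrez 1595), the demethylase that starts this stretch, had 119.6, 118.0 and 135.5 CPM in shRNF11 libraries, against 111.4, 111.7 and 104.5 CPM in shControl libraries. Every shRNF11 library lay above every shControl library, with shRNF11 replicate 3 the highest, at 1.14-fold (log2 fold change 0.19, SE 0.0416, edgeR adjusted p = 0.000340). MSMO1 (Entrez 6307), an oxidase that acts soon after it on the sterol methyl groups, had 26.6, 25.6 and 26.5 CPM in shRNF11 libraries, against 23.2, 23.0 and 23.5 CPM in shControl libraries. The groups of MSMO1 were tight and apart, and its call was marginal (log2 fold change 0.18, SE 0.0690, edgeR adjusted p = 0.0442) and held in 4 of 14 alternatives. It was lost without any 1 of shRNF11 replicates 1 and 3 and shControl replicates 1, 2 and 3 (edgeR adjusted p 0.0997, 0.0858, 0.0947, 0.111 and 0.0758).

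TM7SF2 (Entrez 7108), a sterol reductase, was the member with the lowest count and the largest fold. It had 106, 86 and 76 reads in shRNF11 libraries, against 109, 169 and 157 reads in shControl libraries, or 2.84, 2.26 and 2.005 CPM against 2.82, 4.41 and 4.06 CPM. Replicate 1 of shControl lay within the shRNF11 range and the other 2 shControl libraries above it. The change was 1.59-fold lower (log2 fold change -0.67, SE 0.211, edgeR adjusted p = 0.0119), with a 95% interval of the ratio of 0.470 to 0.846. The call was lost without shRNF11 replicate 3 or shControl replicate 2 or 3 (edgeR adjusted p 0.0568, 0.0959 and 0.0533).

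DHCR7 (Entrez 1717), the reductase of the last step, had 90.8, 81.3 and 83.7 CPM in shRNF11 libraries, against 92.9, 93.0 and 93.8 CPM in shControl libraries. Its shControl libraries lay within 1 CPM of each other, and all shRNF11 libraries lay below them. The fall was 1.09-fold (log2 fold change -0.13, SE 0.0420, edgeR adjusted p = 0.0144) and was not past the threshold without shRNF11 replicate 2 or 3 (adjusted p 0.140 and 0.0570).

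The remaining 4 enzymes of the lanosterol stretch overlapped between the groups. NSDHL, a sterol dehydrogenase, averaged 46.2 ± 4.24 CPM in shRNF11 cells and 45.1 ± 1.98 CPM in shControl cells. EBP, the sterol isomerase, averaged 179.0 ± 5.51 CPM in shRNF11 cells and 174.0 ± 2.54 CPM in shControl cells, and SC5D, the desaturase after it, 86.0 ± 6.66 and 83.5 ± 2.65 CPM in the same order (SD, n = 3 each). HSD17B7, a ketosteroid reductase with few reads, had 9.79, 7.73 and 7.23 CPM in shRNF11 libraries, against 7.26, 6.47 and 7.34 CPM in shControl libraries. With its 95% interval of the ratio from 0.981 to 1.41, HSD17B7 was the not-called member with the highest upper bound, and shRNF11 replicate 1 stood above every other library.

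**Figure D3:**
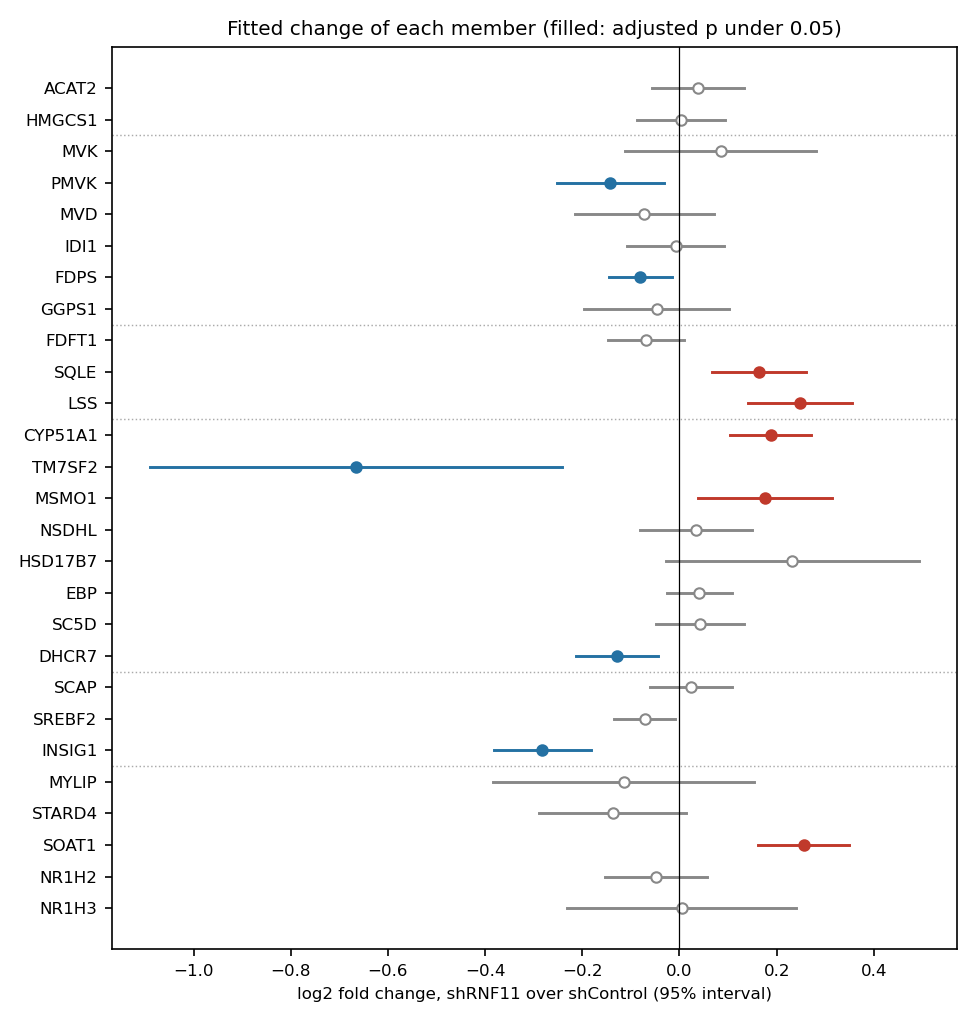
Fitted log2 fold change of each member, shRNF11 over shControl, with its 95% interval, in pathway order from top to bottom; filled points passed an adjusted p of 0.05. SQLE, LSS, CYP51A1 and MSMO1 stand right of 0 in the middle of the pathway, PMVK, FDPS, TM7SF2, DHCR7 and INSIG1 left of it, and TM7SF2 has the widest interval.

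Summed over the 19 enzymes, the level was 1360, 1352 and 1321 CPM in shRNF11 libraries and 1346, 1332 and 1315 CPM in shControl libraries. The sums overlapped. Genes with many reads carry most weight in such a sum. By step, 0 of 2 opening genes, 2 of 6 mevalonate genes (both lower), 2 of 3 squalene genes (both higher) and 4 of 8 lanosterol genes (2 in each direction) were called, beside 32.1% of all tested genes. The steps hold few genes, and no difference between steps was tested.

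Of the sterol-sensing genes INSIG1 fell. INSIG1 (Entrez 3638) had 54.2, 50.2 and 48.96 CPM in shRNF11 libraries, against 64.3, 61.9 and 60.3 CPM in shControl libraries. Every shRNF11 library lay below every shControl library, and the fall was 1.22-fold (log2 fold change -0.28, SE 0.0497, edgeR adjusted p = 9.87e-06). Over the alternatives the smallest change was -0.25. INSIG1 thus moved opposite to the 4 enzymes that rose and in the same direction as the 4 that fell (PMVK, FDPS, TM7SF2 and DHCR7). The other 11 of the 19 enzymes, HMGCS1 among them, did not pass.

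SREBF2 (Entrez 6721), which encodes SREBP2, had 209.3, 198.4 and 200.7 CPM in shRNF11 libraries, against 212.5, 209.9 and 217.1 CPM in shControl libraries. All 3 shRNF11 values were below all 3 shControl values, but the difference did not pass (log2 fold change -0.072, SE 0.0317, edgeR adjusted p = 0.0760). It passed in 4 of the 14 alternatives, among them the one without shRNF11 replicate 1 (adjusted p = 0.0260). SCAP (Entrez 22937) averaged 79.4 ± 1.52 CPM in shRNF11 cells and 78.1 ± 1.0997 CPM in shControl cells (SD, n = 3 each), and the 95% interval of its ratio was 0.958 to 1.08. The abundance of these transcripts does not report on cleavage of the SREBP2 protein, which was not measured.

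SOAT1 rose among the genes of uptake, traffic and LXR. SOAT1 (Entrez 6646), which esterifies cholesterol for storage in droplets, had 66.2, 66.0 and 63.7 CPM in shRNF11 libraries, against 54.2, 54.7 and 55.2 CPM in shControl libraries. The groups were far apart for their spread, at 1.19-fold (log2 fold change 0.26, SE 0.0467, edgeR adjusted p = 1.92e-05), and the change stayed between 0.19 and 0.28 on the log2 scale over the alternatives. STARD4 (Entrez 134429), a soluble carrier that moves sterol between membranes and a known SREBP2 target, had 21.0, 21.4 and 23.3 CPM in shRNF11 libraries, against 24.9, 25.4 and 21.9 CPM in shControl libraries. It did not pass (log2 fold change -0.14, SE 0.0750, edgeR adjusted p = 0.162), whereas with library totals it was called lower (adjusted p = 0.0329).

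The LXR genes themselves overlapped. NR1H2 (Entrez 7376), the widely expressed LXR beta, averaged 53.4 ± 3.21 CPM in shRNF11 cells and 55.3 ± 2.995 CPM in shControl cells, and NR1H3 (Entrez 10062), LXR alpha, 9.63 ± 0.776 and 9.60 ± 1.58 CPM in the same order (SD, n = 3 each). MYLIP (Entrez 29116), an LXR-induced ubiquitin ligase that sends lipoprotein receptors to breakdown, averaged 6.41 ± 0.835 CPM in shRNF11 cells and 6.95 ± 0.306 CPM in shControl cells. Its 95% interval of the ratio, 0.766 to 1.11, had the lowest bound of the 17 members that did not pass. For 15 of these 17 the interval lay within 0.8 to 1.25, so that a change of 1.25-fold or more lay outside it. The intervals of the other members, MYLIP and HSD17B7, were wider.

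**Figure D4:**
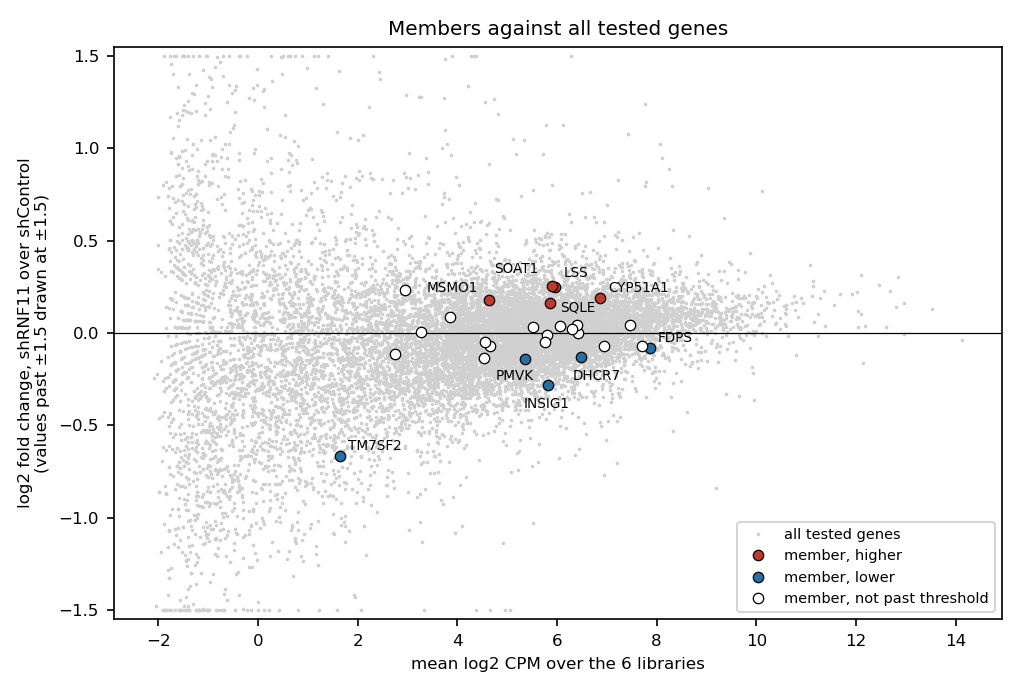
Fitted log2 fold change against mean expression for all tested genes (grey) and the members (circles; red higher, blue lower, white not past the threshold); values beyond 1.5 in size are drawn at that limit. Members lie within the cloud of genes of like abundance, and TM7SF2 has the lowest mean expression among them.

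Well-expressed genes passed more often in these libraries, so the members were also set beside genes of like abundance. Tested genes were ranked by mean expression and cut into 5 equal bins. In the bin of highest expression 55.7% passed, and 3 of the 8 members there did. In the next bin 38.8% of genes and 5 of 10 members passed; below it, the shares were 32.3% of genes and 1 of 4 members, then 24.8% of genes and 1 of 5 members. The median absolute log2 fold change was 0.0810 over the members, 0.0964 and 0.0955 over all genes of the top bin and the one after it, which hold 18 of the 27 members, and 0.371 in the bin of lowest expression, which holds 0. The groups' libraries did not overlap for 8 of the 27 members, 4 higher and 4 lower, while 42.8% of all tested genes did not overlap (22% higher and 20.9% lower).

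The spread between libraries differed by group. The median coefficient of variation of the members was 5.83% in shRNF11 cells and 3.45% in shControl cells, beside 5.61% and 5.00% over all tested genes in the same order. It was larger in shRNF11 cells for 19 of 27 members (70.4%) and for 55.7% of all tested genes. Within the shRNF11 group, 16 of 27 members had their lowest value in replicate 3 and 15 had their highest in replicate 1. Within the shControl group no library held more than 11 of the highest or 10 of the lowest values. This order was counted for the members only, so whether other genes share it is not known.

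Genes that process SREBPs or degrade sterol enzymes changed in both directions, with 3 of 15 higher, 4 lower and 8 not past the threshold (median log2 fold change -0.076). That is 46.7% called, beside 32.1% of all tested genes (17.4% higher and 14.7% lower), and nothing is read from it about the list. SREBF1, which encodes the SREBP1 isoforms of lipogenesis, averaged 73.1 ± 4.15 CPM in shRNF11 cells and 83.6 ± 0.587 CPM in shControl cells (SD, n = 3 each), for an edgeR adjusted p of 0.000445 and a log2 fold change of -0.19 (SE 0.0440). MBTPS1, the first of the Golgi proteases that cut SREBPs, fell by 0.13 on the log2 scale, and ERLIN2, a scaffold for sterol-induced degradation in the endoplasmic reticulum, by 0.23. MARCHF6, a ubiquitin ligase that degrades the SQLE protein, averaged 275.4 ± 5.49 CPM in shRNF11 cells and 302.6 ± 6.87 CPM in shControl cells, a fall of 0.14 on the log2 scale. These 4 were called in all 14 alternatives. The 3 higher genes, named after their values were seen, were RNF145 (log2 fold change 0.12), ERLIN1 (0.12) and SPRING1 (0.14), a ligase, the partner of ERLIN2 and a cofactor of SREBP cleavage. Their calls were lost with library totals (edgeR adjusted p 0.323, 0.293 and 0.262), with upper-quartile factors (0.0559, 0.0557 and 0.0621) and when single libraries were left out: shControl 1 or 3 for RNF145 (0.0544 and 0.0635), shRNF11 1 or shControl 3 for ERLIN1 (0.0716 and 0.212), and any but shRNF11 2 for SPRING1 (0.0620 to 0.0999). Without shControl replicate 3 the log2 fold change of ERLIN1 was 0.082.

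The list of SREBP targets in lipogenesis also holds genes outside fatty acid synthesis. It had 4 of 17 genes higher, 4 lower and 9 not past the threshold (median log2 fold change 0.051). That is 47.1% called, beside 32.1% of all tested genes. SCD, which desaturates stearate, had the smallest p of the list and averaged 867.2 ± 25.5 CPM in shRNF11 cells and 1115 ± 22.2 CPM in shControl cells (SD, n = 3 each), for an edgeR adjusted p of 6.34e-18 and a log2 fold change of -0.36 (SE 0.0237). The desaturase FADS1 fell by 0.18 on the log2 scale. ACSL3, which activates fatty acids for lipid droplets, averaged 135.5 ± 4.24 CPM in shRNF11 cells and 107.0 ± 1.22 CPM in shControl cells (log2 fold change 0.34), and ACLY, which makes cytosolic acetyl-CoA for both sterols and fatty acids, had a log2 fold change of 0.12. The other called genes, named after their values were seen, were LPIN1 (0.28) and AACS (0.18), both higher, and ACSS2 (-0.37) and ACACA (-0.13), both lower. FASN, the fatty acid synthase, did not pass (0.051, edgeR adjusted p = 0.134). The calls on ACLY and AACS were lost with library totals (adjusted p 0.0944 and 0.146), and that on AACS also without shControl replicate 1 or 2 (0.113 and 0.0581).

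The list of genes that move, store, release or modify sterol also held the thiolase ACAT1 and the EBP homologue EBPL. It had 5 of 15 tested genes higher, 2 lower and 8 not past the threshold (median log2 fold change 0.031). That is 46.7% called, beside the same 32.1% of all tested genes. CAV1, the coat protein of cholesterol-rich caveolae, averaged 218.6 ± 1.29 CPM in shRNF11 cells and 152.3 ± 3.501 CPM in shControl cells (SD, n = 3 each), for an edgeR adjusted p of 7.81e-19 and a log2 fold change of 0.52 (SE 0.0323). SCARB1, the receptor for high-density lipoprotein, had a log2 fold change of 0.24, and so did LIPA, the lysosomal enzyme that frees cholesterol from lipoprotein esters. GRAMD1B, a carrier of sterol from the plasma membrane to the endoplasmic reticulum, averaged 118.5 ± 4.14 CPM in shRNF11 cells and 161.0 ± 3.24 CPM in shControl cells (log2 fold change -0.44). These 4 genes kept their calls in all 14 alternatives. The others called, named after their values were seen, were EBPL (0.33), a homologue of EBP, the mitochondrial thiolase ACAT1 (0.13) and OSBPL2 (-0.27), an oxysterol-binding protein; the ACAT1 call was lost without shRNF11 replicate 3 or shControl replicate 1 or 2 (edgeR adjusted p 0.0799, 0.0557 and 0.0785) and with library totals (0.261). NPC1 and NPC2, which pass lysosomal cholesterol on, did not pass (log2 fold changes 0.027 and -0.036).

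Users of isoprenoids, the pathway's other outlet, had 2 of 13 tested genes higher, 0 lower and 11 not past the threshold (median log2 fold change 0.026). That is 15.4% called, beside 32.1% of all tested genes. The called genes were NUS1 (0.13), a subunit of the enzyme that makes dolichol, and RCE1 (0.22), a protease of prenylated proteins. Both calls were lost with library totals (edgeR adjusted p 0.237 and 0.116). They were also lost without shRNF11 replicate 2 or shControl replicate 3 (0.0690 and 0.0759 for NUS1, 0.158 and 0.0631 for RCE1), and that of RCE1 without shControl replicate 2 (0.0817). Of the 8 tested LXR targets and partners, RXRA, the shared partner of LXRs, was higher (0.17, edgeR adjusted p = 0.0462), and 7 did not pass. This list thus had 12.5% called, beside the same 32.1%. RXRA held in 4 of 14 alternatives and was lost when any library but shRNF11 replicate 2 was left out (adjusted p 0.0548 to 0.157). ABCG1, an LXR-induced cholesterol exporter, averaged 1.09 ± 0.263 CPM in shRNF11 cells and 1.1495 ± 0.254 CPM in shControl cells (SD, n = 3 each), and ABCA1 had too few reads to be tested. Across the 5 lists, 25 of 68 tested genes (36.8%) were called, 15 higher and 10 lower, again near the 32.1% of all tested genes.

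**Figure D5:**
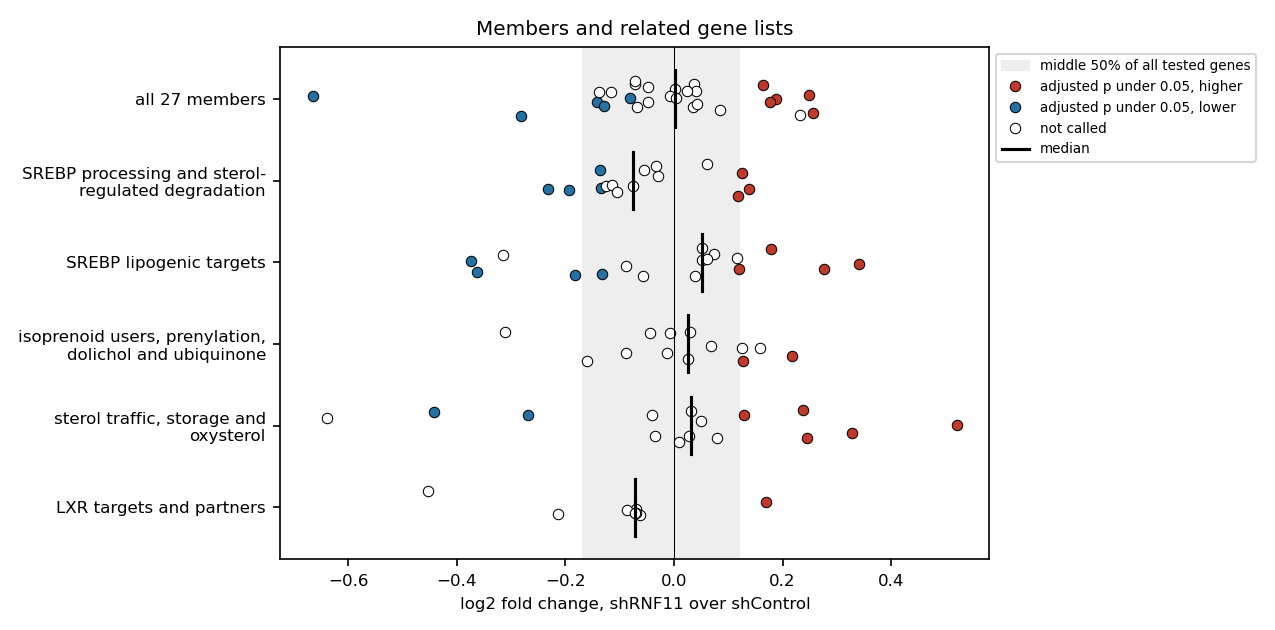
Log2 fold change of the members and of the 5 lists of related genes, 1 point per tested gene, with the median of each list as a black bar and the middle 50% of all tested genes as a grey band. Each median lies inside the band, and CAV1 is the rightmost and TM7SF2 the leftmost point.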

How the data were processed

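The deposited table gives raw read counts per gene for each library, with no normalization by the authors, per the file headers. The submitters' processing notes name fastp, HISAT2 and HTSeq without versions or roles. Build, annotation and strand setting are not stated there, so reads of antisense or overlapping genes (rows such as SREBF2-AS1 or STARD4-AS1) and of near-identical copies cannot be separated from the members'. Reference tables at hand were for mouse, so no coordinates or sequences are given.

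Genes were kept by filterByExpr (minimum count 10), leaving 13489 of 20499; 0 rows named no gene. Counts were scaled by TMM and tested with edgeR 4.0.16 in R 4.3.3 (glmQLFit and glmQLFTest, 2-sided, no term but group), with Benjamini-Hochberg adjustment and calls at 0.05. A standard error is |log2 fold change| divided by the root of F; 95% intervals use the test's degrees of freedom. Means are of TMM-scaled CPM. Fold changes compare a gene with itself, and levels are not compared between genes, as lengths were not used. The typical coefficient of biological variation was 4.82% and the members' median standard error 0.0501.

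The fit was tested on simulated data with known changes before use. It called 27 of 50 genes with a log2 change of 0.25 in size and 43 of 50 with 0.5. Of 13288 unchanged genes it called 6. Changes as small as 0.25 can thus be missed. These shares are not the power for the members. The simulation changed far fewer genes than the 4336 called here, which makes the adjusted threshold stricter. It drew the changed genes from all with a mean of at least 10 reads and gave every gene the same biological variation. Members had 76 to 9366 reads per library. Replicates differed beyond sampling noise (chi-square per gene 3.79 to 5.85 within groups), so none was a duplicate.

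The rule for named genes takes all members, RNF11 and up to 4 called genes with the smallest p of each related list. Other called genes of these lists, and the uncalled FASN, NPC1, NPC2, ABCG1 and ABCA1, were named after their values were seen. The members and lists were chosen with earlier results of these data known. The alternatives were 3 other scalings (RLE factors, upper-quartile factors, totals alone), all genes unfiltered, a mean CPM of at least 5, limma-voom (limma 3.58.1), DESeq2 1.42.0, a block for replicate number, and dropping each library in turn.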

Additional observations from a re-analysis of the deposited data

How the results depend on the processing

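All 14 alternatives were run, and TM7SF2 gave no value under the filter at a mean of 5 CPM. Over all tested genes the main fit called 4336; leaving out 1 library gave 3478 to 3978 and the other alternatives 4038 to 4590. Higher members numbered 3 with library totals and 3 to 5 without 1 library. Lower members numbered 8 with library totals, 3 with no filter and 1 to 6 without 1 library. The median log2 fold change of the members was -0.062 with library totals, which moved the median of all tested genes by -0.064, and -0.022 to 0.026 without 1 library. No called gene among those named changed sign in an alternative. Values of members that were never called changed sign as follows, and the cause was not tested. With library totals the log2 fold change was -0.062 for HMGCS1, -0.027 for ACAT2, -0.030 for NSDHL, -0.023 for EBP, -0.022 for SC5D, -0.041 for SCAP and -0.060 for NR1H3. With upper-quartile factors it was -0.017 for HMGCS1 and -0.015 for NR1H3, and with the filter at 5 CPM -0.011 and -0.0090 in the same order. Without 1 library it ran from -0.055 to 0.052 for HMGCS1, -0.059 to 0.031 for IDI1, -0.12 to 0.026 for GGPS1, -0.022 to 0.17 for MVK, -0.022 to 0.11 for NSDHL and -0.076 to 0.15 for NR1H3. The groups share replicate numbers, but same-numbered libraries did not deviate together (correlations -0.021, -0.0012 and -0.0013) and 0 of 6 libraries correlated best with its own number. With the replicate block 4399 genes were called, and the members were 4 higher and 5 lower, as the call on MSMO1 was lost (edgeR adjusted p = 0.0560); that on RXRA was lost too (0.0551). The largest standard errors among the members were those of TM7SF2 (0.211), MYLIP (0.134), HSD17B7 (0.129) and NR1H3 (0.118), which had 703 to 2202 reads over the 6 libraries; how much of that error is depth was not tested.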
